A study of Mus musculus with 8 samples.

Results

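The 35 genes described here encode the machinery that copies DNA in S phase, and their RNA was measured in the palatal shelves of Pax9 null, heterozygous and wild-type mouse embryos. They were chosen by name, as rows whose Ensembl identifier maps to a fixed set of replication gene symbols, and all 35 were found among 19083 genes in the deposited table. All 35 also passed the filter on low values, which asks that at least 2 libraries reach 1 FPKM and which 13600 genes passed. FPKM is the number of sequenced fragments scaled by gene length and by the library's total, so levels of different genes can be set side by side.

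The palatal shelves are outgrowths of the maxilla that fuse to form the secondary palate, and Pax9 is a paired-box transcription factor of their mesenchyme. Palates of embryos of the strain C57BL/6 at embryonic day 13.5 were lysed individually per the design text: 4 libraries were Pax9-/- (null), 2 were Pax9+/+ (wild type) and 2 were Pax9+/- (heterozygote), all with the treatment label N.A. The wild types and heterozygotes together are called controls, and the heterozygotes among them carry 1 null allele. The labels name no Cre driver and do not say which embryos shared a litter, so the p-values speak of the spread among these 8 embryos only.

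Before a cell can copy its DNA, the Mcm2 to Mcm7 hexamer is loaded onto origins with the help of Cdc6 and Cdt1, a step called licensing. Cdc45 and the GINS complex then join the hexamer to form the active helicase, and polymerase alpha with primase starts the new strands, which polymerases delta and epsilon extend while held by the Pcna clamp. Transcription of many of these genes rises at the passage from G1 to S under the control of E2F factors, so their RNA is widely used as an indirect readout of proliferation, including in growing palatal mesenchyme. RNA alone does not measure cell division, and in dissected tissue a smaller share of cells in S phase cannot be told apart from less of the RNA in each cell.

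E2F factors bind short promoter motifs, and a few stretches that hold them are shown because these genes are often treated as a shared E2F programme. The promoter windows of RefSeq on GRCm38.p6, from 250 bases before to 50 after the start, were searched on both strands for the E2F-type motif TTCGCGC. The search also took in the related motif TTGGCGC, the closely similar form TTCCCGC and finally the variant TTGCCGC, whose matches can overlap each other. A window was at hand for 27 of the 35 genes, and 18 of these, 66.7%, held a motif; among all 27025 genes with a window the share was 10.9%. Upstream of the start alone, 12 of the 27 held one, against 9.01% of all genes. For 6 of the 7 roles, 1 stretch upstream of the start of a RefSeq window is printed, from the gene with the smallest p among those that hold a motif there. By the gene spans of the GENCODE annotation, the Mcm7, Fen1 and Gins3 stretches lie inside the gene, downstream of its outermost start. Another window of Fen1, farther upstream, held 0 motifs. Each reads 5′ to 3′ on the gene's strand, with the motif or its reverse complement in capitals.
Rrm2, chr12:24708004-24708045, plus strand: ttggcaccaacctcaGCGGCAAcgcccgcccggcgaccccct
Fen1, chr19:10203929-10203975, minus strand: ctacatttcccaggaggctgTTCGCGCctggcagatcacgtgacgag
Mcm7, chr5:138172022-138172068, minus strand: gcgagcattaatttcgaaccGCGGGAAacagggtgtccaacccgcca
Uhrf1, chr17:56303269-56303315, plus strand: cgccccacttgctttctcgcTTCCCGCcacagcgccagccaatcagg
Gins3, chr8:95633498-95633544, plus strand: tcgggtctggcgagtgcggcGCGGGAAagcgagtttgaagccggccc
Pola1, chrX:93632250-93632344, minus strand: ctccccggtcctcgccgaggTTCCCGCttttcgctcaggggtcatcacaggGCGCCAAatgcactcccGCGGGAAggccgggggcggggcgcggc

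The Pola1 stretch holds 3 motifs and each of the other stretches 1. A match of letters is a description and not a bound site. The median log2 difference between null and control was −0.13 in the 18 genes with a motif and −0.13 in the 9 with a window and no motif, and in 4 genes of each set all null values lay below all control values, which held for 3.3% of all tested genes.

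Libraries held between 37069101 and 51210254 reads assigned to genes. Pax9 itself read 7.19 to 10.3 FPKM in the null embryos against 26.2 to 35.8 in the controls, so its level separates null from control embryos as the labels do. It did not separate the control genotypes, with 35.8 and 27.2 in wild type and 30.1 and 26.2 in heterozygous embryos. Markers of palatal mesenchyme, Prrx1, Twist1 and Osr2 among them, were present in every library. The 8 genes, which include Pax9 itself, summed to 773 to 811 FPKM in null and 673 to 785 in control embryos, with overlap. Of the 8, 2 were called lower and 1 higher in null embryos (limma), where 0.419% of all tested genes were called in either direction. These markers therefore show the tissue but are not a level that stays the same between genotypes.

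Every one of the 35 replication genes had a lower point estimate in null than in control embryos, and none passed the test. The log2 differences ran from −0.22 for Gins1 to −0.04 for Rfc3, with a median of −0.12, while the median over all tested genes was −0.01 and 54.2% of them lay below 0. In linear terms the null mean was lower by 3.03% to 14.8%, with a median of 8.46%. The count of genes called at an adjusted p under 0.05 was 0 of 35 (limma, Benjamini-Hochberg over 13600 genes), where 0.419% of all tested genes were called in either direction and 0.191% were called lower. At an unadjusted p under 0.05, 11 of the 35 were lower, against 4.19% of all tested genes.

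Summed over the 35 genes, the null libraries read 1152, 1099, 1108 and 1139 FPKM. Wild-type sums were 1249.6 and 1231, and heterozygote sums 1213 and 1228. Every null embryo lay below every control, and the null mean of 1125 ± 25.1 (SD, n = 4) was 8.61% lower than the control mean of 1230.5 ± 15.1 (SD, n = 4). For 10 of the 35 genes all 4 null values lay below all 4 control values, and for 0 they lay above; among all tested genes the shares were 3.3% and 1.83%. These 10 are Mcm7, Cdc6, Mcm10, Cdc45, Gins1, Pcna, Rfc2, Fen1, Rrm2 and Tyms.

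**Figure D1:**
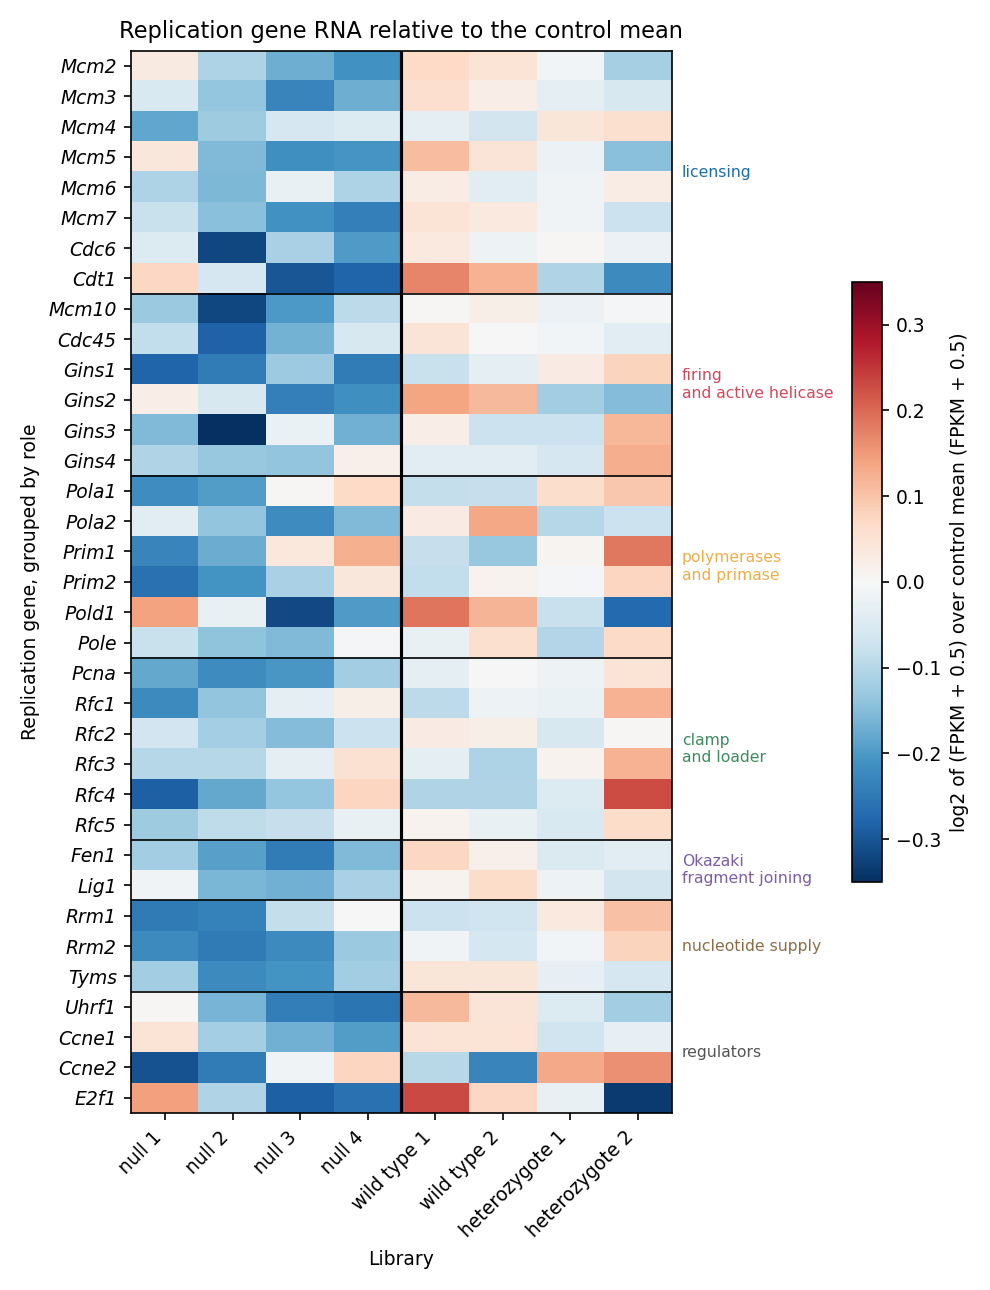
Heat map of the 35 replication genes (rows, grouped by role) in the 8 libraries (columns), coloured by log2(FPKM + 0.5) minus the mean of the 4 controls. Blue is below and red above that mean; the 4 null columns are mostly blue, and the shade of a gene differs between embryos of 1 genotype.

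Licensing factors had the highest summed level of the 7 roles, at 444 to 478 FPKM in null and 479 to 514 in control embryos, and all 8 had lower null means, by 6.64% to 11.5%. Mcm6, a subunit of the helicase hexamer and the highest gene of all, read 103, 99.6, 109 and 103 FPKM in the null embryos, 113 and 108 in wild type, and 110.1 and 113 in heterozygous embryos. Its highest null value exceeded its lowest control value, so the groups overlapped, and the log2 difference was −0.10 with an SE of 0.05 (limma, adjusted p = 0.729).

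Mcm7, another hexamer subunit (ENSMUSG00000029730, chromosome 5, 138164583 to 138172422, minus strand of GRCm38), read 36.5, 34.8, 33.2 and 32.6 FPKM in null, 39.9 and 39.5 in wild type, and 38.2 and 36.6 in heterozygous embryos. The groups did not overlap, though null 1 and heterozygote 2 differed by little. Means were 34.3 ± 1.73 and 38.5 ± 1.45 (SD, n = 4 each), a log2 difference of −0.17 with an SE of 0.05 (limma, adjusted p = 0.39). Cdc6, the loader ATPase, was the lowest of the group at 8.11, 6.64, 7.73 and 7.27 FPKM in null against 8.62, 8.3, 8.43 and 8.28 in the control embryos. All 4 controls fell close together, the null values were more spread, and the log2 difference was −0.17 with an SE of 0.06 (limma, adjusted p = 0.557).

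Of the remaining licensing factors, the hexamer subunits Mcm2, Mcm3, Mcm4 and Mcm5 had null means of 68.2 to 73 FPKM against control means of 74.7 to 80.2, and Cdt1, which is degraded once S phase begins, had 26.7 against 29.3. Their null and control values overlapped. Although the hexamer holds its subunits in equal number, the highest and lowest subunit means differed 2.94-fold per length. Mcm7 was the lowest, with a mean of 36.4 FPKM over the 8 libraries, and Mcm5 came next at 71.5. Before scaling by length, Mcm6 had 10954 to 16265 reads per library and Mcm7 had 5361 to 8106, so the fold depends on the gene lengths used. The ratio of Mcm6 to Mcm7 was 3.03 ± 0.231 in null and 2.89 ± 0.153 in control embryos (SD, n = 4 each), and the ratios spanned 2.73 to 3.29 over the 8 libraries.

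Genes for origin firing and the active helicase summed to 91.4 to 99.4 FPKM in null and 103 to 110.0 in control embryos, with no overlap. All 6 point estimates were below 0, with a median of −0.16, and 3 of the 6 were lower without overlap, where 54.2% of all tested genes were below 0 and 3.3% lower without overlap. Gins1, a subunit of the GINS complex (ENSMUSG00000027454, chromosome 2, 150905400 to 150931280, plus strand), read 15.5, 15.9, 17.3 and 15.9 FPKM in null, 17.9 and 18.5 in wild type, and 19.3 and 20 in heterozygous embryos. Heterozygote 2 was the highest and null 1 the lowest, and the log2 difference of −0.22, with an SE of 0.05, had the largest size of the 35 (limma, adjusted p = 0.19).

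Mcm10, which helps activate the loaded helicase, read 6.77, 5.88, 6.42 and 6.97 FPKM in null and 7.49, 7.58, 7.35 and 7.42 in control embryos. Its controls spanned a narrow range above every null value; the log2 difference was −0.19 with an SE of 0.06 (limma, adjusted p = 0.428). Cdc45, the helicase cofactor, read 19.7, 17.1, 18.6 and 20.1 in null and 21.6, 20.9, 20.8 and 20.4 in control embryos. Null 4 came within a small step of heterozygote 2, and the log2 difference was −0.15 with an SE of 0.06 (limma, adjusted p = 0.566). The most abundant GINS gene, Gins4, read 34.4, 33.7, 33.6 and 37.5 in null against 36.0, 36.1, 35.5 and 40.5 FPKM in control embryos, with overlap and a log2 difference of −0.09 (SE 0.06; limma, adjusted p = 0.888). In Gins2 and Gins3 the null means were 9.56 and 10.1 FPKM and the control means 10.4 and 11.4, again with overlap. Of the exon bases of Gins2, 67.3% lie opposite Gse1.

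Polymerase and primase genes had a median log2 difference of −0.09, and null and control values overlapped in all 6. Pola2, the regulatory subunit of polymerase alpha, was the most abundant of them and also had the smallest p. It read 30.8, 28.7, 27.1 and 28.4 FPKM in null, 32.3 and 34.8 in wild type, and 29.5 and 30.0 in heterozygous embryos, and null 1 lay above both heterozygotes (log2 −0.13, SE 0.06; limma, adjusted p = 0.759). The primase subunits Prim1 and Prim2 had null means of 18.9 and 19.8 against 19.6 and 21.8 in control embryos. Pola1, the catalytic subunit of polymerase alpha, had 7.89 against 8.37, Pold1 of polymerase delta 23.1 against 24.6, and Pole of polymerase epsilon 10.8 against 11.5 FPKM. Prim1 was the only 1 of the 35 whose point estimate turned above 0 when a library was left out, to 0.01 without heterozygote 2 and to 0.002 without null 1.

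The clamp and its loader differed among themselves. Pcna, the sliding clamp (ENSMUSG00000027342, chromosome 2, 132249162 to 132253314, minus strand), read 36.5, 35.5, 35.9 and 38.0 FPKM in null, 40.5 and 41.4 in wild type, and 40.9 and 42.8 in heterozygous embryos. No null value reached a control value, and null 4 was the closest to the controls. The means of 36.5 ± 1.12 and 41.4 ± 0.979 (SD, n = 4 each) gave a log2 difference of −0.18 with an SE of 0.04 (limma, adjusted p = 0.177). The table also lists the pseudogene Pcna-ps2, with at most 1.41 FPKM, and reads shared between the copies may have been assigned to either.

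Among the loader subunits, Rfc2 was the most abundant, with 65.3, 63.0, 61.6 and 65.0 FPKM in null and 69.9, 69.5, 65.8 and 68.6 in control embryos. Heterozygote 1 lay just above null 1, without overlap (log2 −0.10, SE 0.04; limma, adjusted p = 0.651). Rfc1, Rfc3, Rfc4 and Rfc5 overlapped, with null means of 27.5, 15.3, 28.7 and 10 FPKM and control means of 29.4, 15.8, 31.3 and 10.6. Loader subunit means spanned 6.42-fold per length, and the ratio of Rfc2 to Rfc5 stayed between 6.15 and 6.74 in all 8 libraries. Before scaling by length, Rfc2 had 3627 to 4876 reads per library and Rfc5 had 1758 to 2401. The fold therefore rests in part on the gene lengths used.

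Fen1 and Lig1 trim and seal the fragments of the lagging strand. Fen1 (ENSMUSG00000024742, chromosome 19, 10199132 to 10204169, minus strand) read 25.4, 24.2, 23.3 and 24.8 FPKM in null, 29.1 and 28.0 in wild type, and 26.7 and 26.9 in heterozygous embryos. Both wild types lay above both heterozygotes, and all controls above all nulls (log2 −0.18, SE 0.05; limma, adjusted p = 0.294). On the opposite strand, 78.8% of the exon bases of Fen1 overlap the antisense gene Gm10143, and the kit does not mark strand, so their reads cannot be told apart. The same limit holds for Gins2, and in smaller part for Ccne2 (17.4% opposite Ints8), Rfc2 (15.1% opposite Lat2), Rfc4 (12.7% opposite Eif4a2), Rfc5 (10.7% opposite Wsb2), Mcm7 (7.25% opposite Ap4m1), Cdc45 (5.96% opposite Ufd1) and Lig1 (5.79% opposite Zswim9). Lig1 read 39.6, 35.7, 35.5 and 36.9 FPKM in null and 40.3, 41.8, 39.4 and 38.2 in control embryos, where null 1 exceeded both heterozygotes (log2 −0.11, SE 0.05; limma, adjusted p = 0.736).

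Enzymes that supply nucleotides for replication were lower in sum in null embryos, at 132 to 149.6 FPKM against 149.9 to 165, though by a narrow margin, and their 3 point estimates had a median of −0.17. Rrm2, the S-phase subunit of ribonucleotide reductase (ENSMUSG00000020649, chromosome 12, 24708241 to 24714146, plus strand), read 51.8, 50.9, 51.8 and 55.2 FPKM in null, 60.0 and 58.0 in wild type, and 60.1 and 63.9 in heterozygous embryos. The groups did not overlap, with null 4 closest to wild type 2, and the means of 52.4 ± 1.92 and 60.5 ± 2.46 (SD, n = 4 each) gave a log2 difference of −0.20 with an SE of 0.05. Its adjusted p of 0.168 was the smallest of the 35 (limma).

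Rrm1, the large subunit of the same enzyme, read 68.4, 69.0, 76.8 and 81.4 FPKM in null, 77.2 and 77.4 in wild type, and 83.3 and 87.4 in heterozygous embryos. Null 4 lay above both wild types, and null 1 and null 2 lay well below null 3 and null 4 (log2 −0.14, SE 0.07; limma, adjusted p = 0.789). Null 1 and null 2 lay below both wild types, and null 3 and null 4 lay below both heterozygotes. The Rrm1 to Rrm2 ratio was 1.41 ± 0.0817 in null and 1.34 ± 0.0433 in control embryos (SD, n = 4 each). Tyms, thymidylate synthase, read 12.9, 12.0, 12.1 and 12.9 in null and 14.5, 14.5, 13.8 and 13.5 FPKM in control embryos, without overlap (log2 −0.17, SE 0.05; limma, adjusted p = 0.374).

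Regulators of the G1 to S passage and of chromatin copying overlapped between the groups in every case. Uhrf1, which recruits the maintenance DNA methyltransferase to newly copied DNA, read 48.8, 43.4, 41.1 and 40.7 FPKM in null, 52.7 and 50.2 in wild type, and 47.1 and 44.7 in heterozygous embryos. Null 1 exceeded both heterozygotes (log2 −0.16, SE 0.07; limma, adjusted p = 0.724). The cyclins Ccne1 and Ccne2, partners of Cdk2, had null means of 17.0 and 8.52 FPKM and control means of 18.3 and 9.28. E2f1, an activating E2F factor, had 13.1 against 14.2 and the widest interval of the 35, from −0.41 to 0.18 on the log2 scale.

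**Figure D2:**
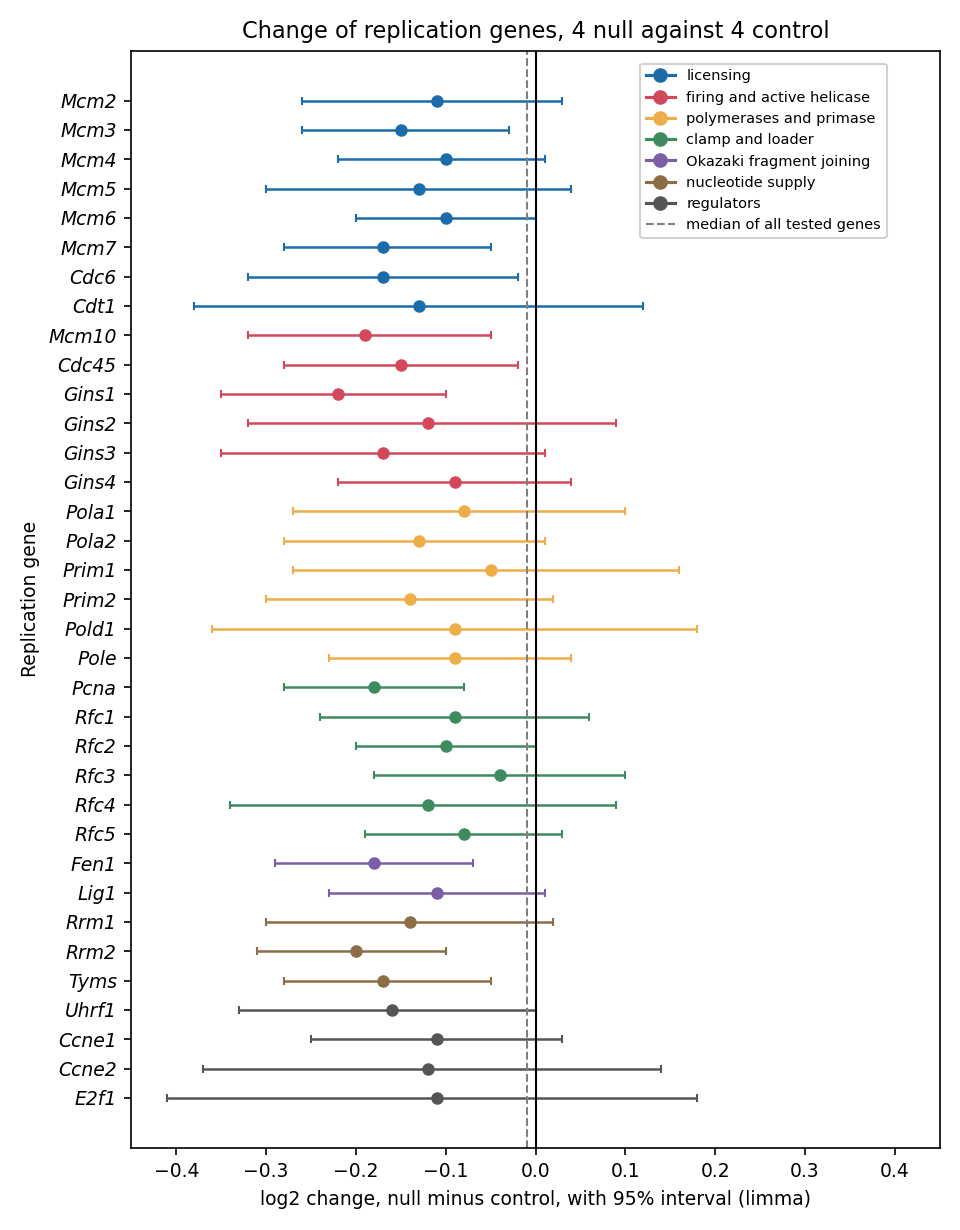
Log2 difference between null and control embryos, null minus control, for each of the 35 replication genes, as points with 95% intervals, coloured by role. All 35 points lie below 0, from −0.22 for Gins1 to −0.04 for Rfc3, and most intervals reach 0.

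**Figure D3:**
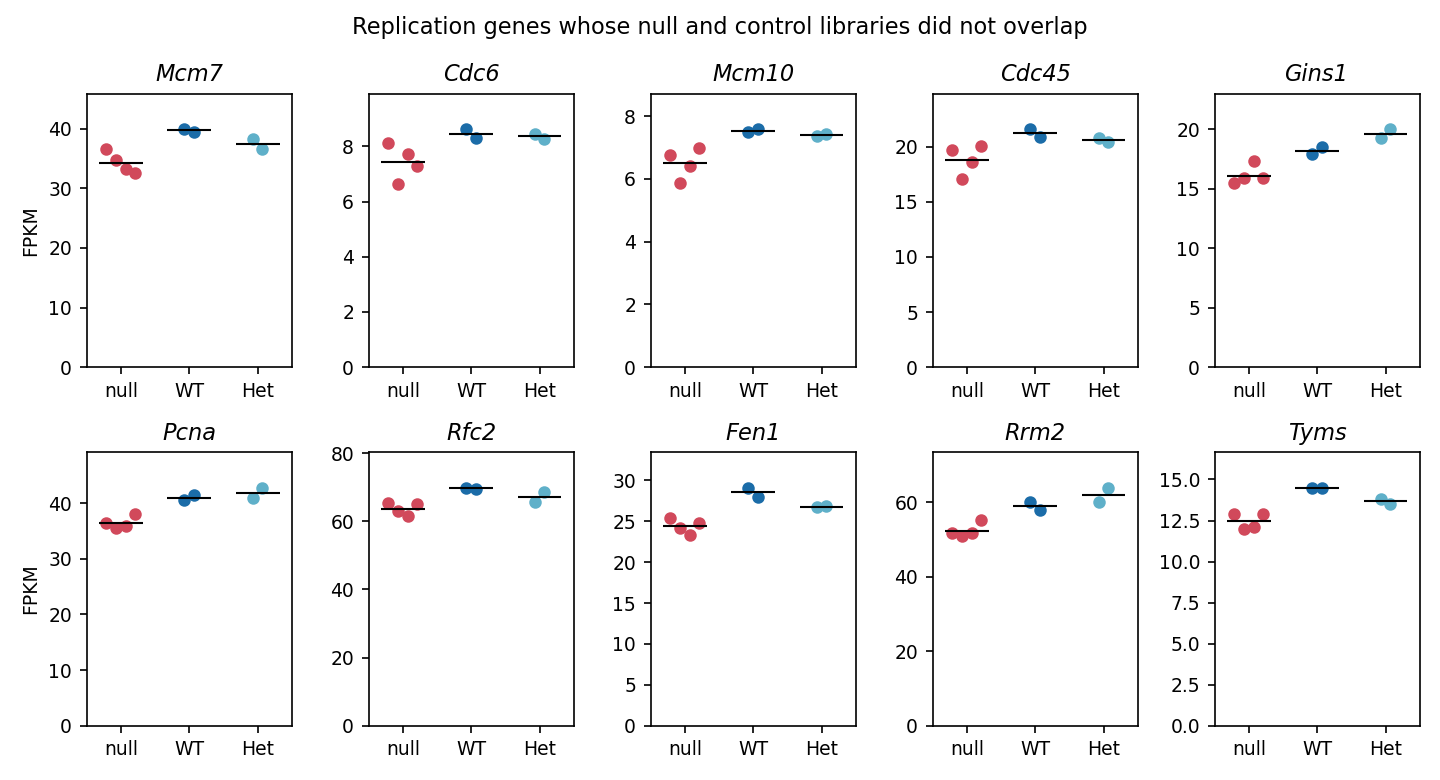
FPKM in each of the 8 libraries for the 10 replication genes without overlap between null and control embryos, with the mean of each genotype as a line. In each panel the 4 null points lie below the 4 control points; Pcna and Rrm2 show wider gaps than Rfc2 or Cdc45.

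Counting error was smaller than the median spread between embryos, though not smaller than the control spread of every gene. The fewest reads of any of the 35 genes in a library were 808, for Gins3, and the coefficient of variation that counting alone gives was 0.955% to 3.52%. Measured between embryos, the median coefficient of variation was 7.34% in null and 5.65% in control embryos. A fold of the size seen here is therefore near the spread within a group for many of the 35 genes. This spread includes the shift between the first and last 4 libraries that is described below. With that place in the record order as a block, the SE of the log2 difference fell from 0.11 to 0.04 for Cdt1 and stayed at 0.06 for Cdc6 (limma). In Mcm10, Cdc6 and Cdc45 the coefficient of variation of the controls was only 1.31%, 1.88% and 2.48%. Counting alone gives 2.42%, 2.76% and 2.62% in their libraries with the fewest reads, which is more than that control spread.

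Split by control genotype, the point estimates kept their sign for most genes but differed in size. Against wild type, 32 of 35 were below 0 (54.6% of all tested genes), with a median of −0.17, and 17 had an unadjusted p under 0.05, where 6.69% of all tested genes were lower at that level. Against heterozygotes, 31 were below 0 (52.0% of all tested genes), with a median of −0.12, and 7 had an unadjusted p under 0.05, against 3.32% of all tested genes. Both comparisons use the same null embryos, so they are not independent. The number called was 0 in each (limma), where 0.382% of all tested genes were called against wild type and 0.0809% against heterozygotes, in either direction. For heterozygotes against wild types 19 of 35 were below 0 (52.2% of all tested genes), with a median of −0.03, 0 were called (limma; 0.0% of all tested genes) and 4 had an unadjusted p under 0.05, 3 of them lower, against 6.54% of all tested genes lower at that level.

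In the order of the sample records, the first 4 libraries are null 1, null 2 and both wild types, and the last 4 are null 3, null 4 and both heterozygotes. Among the controls, genotype and place in this order therefore cannot be told apart, and nothing in the labels says whether the order marks a batch. The null embryos, of 1 genotype, lie in both sets and shifted alike: the Spearman correlation over the 35 genes between null 1 and 2 minus null 3 and 4 and wild type minus heterozygote was 0.95. Between the first and last 4 libraries, the 35 genes differed by −0.31 to 0.32 on the log2 scale, a wider range than between null and control embryos. Gins2, Cdt1 and Pold1 were higher in the first 4 without overlap, and Ccne2, Prim1, Pola1 and Rfc3 were lower; over all tested genes the shares were 17.1% and 16.7%.

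The size of this shift followed base composition. Over the 35 genes the Spearman correlation between GC content of the longest transcript and the first-minus-last difference was 0.88, and over 13418 tested genes it was 0.78; the genes share the same 8 libraries. GC content against the null-minus-control difference of the 35 genes gave −0.04. The next values were chosen for display after they were seen. Pold1 read 27.2 and 24.2 FPKM in null 1 and null 2 and 28.1 and 26.8 in the wild types. Its last 4 libraries were lower, at 19.7 and 21.4 in null 3 and null 4 and 23.3 and 20.3 in the heterozygous pair. Ccne2 went the other way, with 7.4, 7.74, 8.63 and 7.81 FPKM in those first 4 libraries and 9.18, 9.78, 10.2 and 10.4 in the last 4. Within either set of 4 libraries, the null mean of each of these genes was below the control mean.

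**Figure D4:**
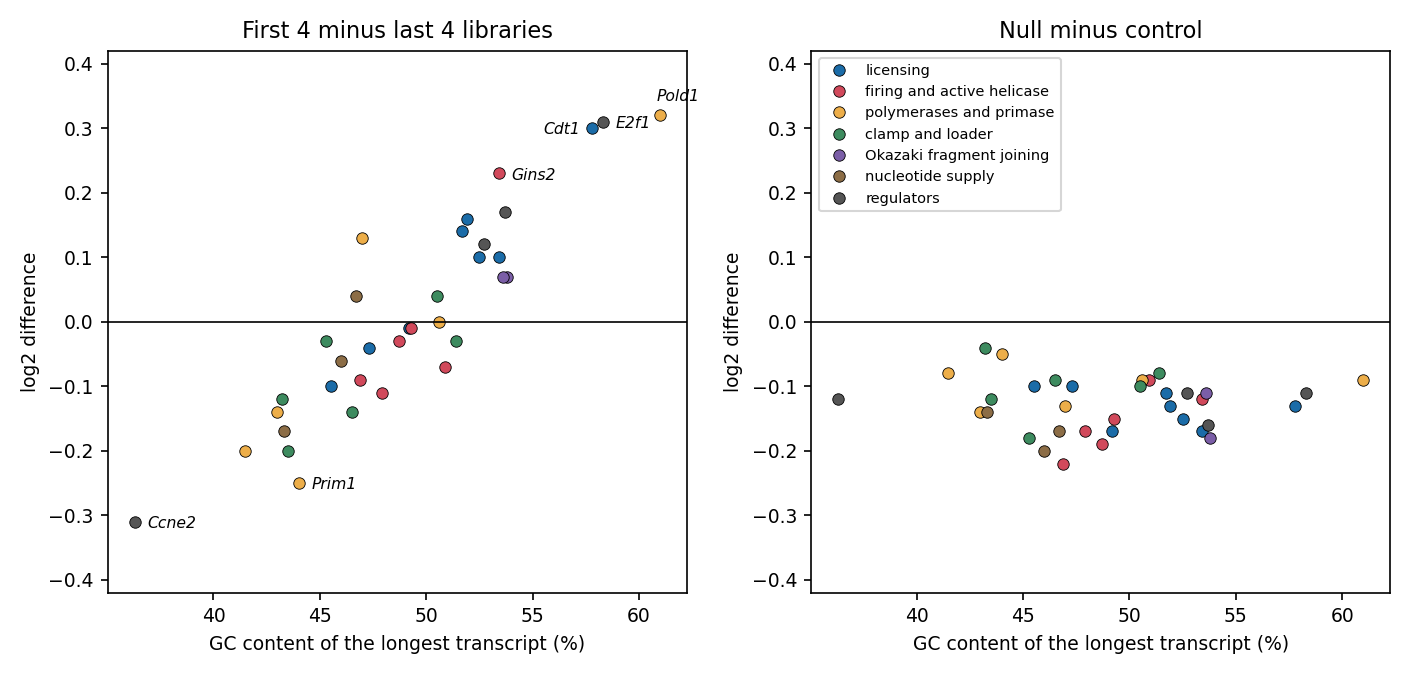
GC content of the longest transcript (percent) against a log2 difference for the 35 replication genes, coloured by role: first 4 minus last 4 libraries at left, null minus control at right. The left points climb with GC content from Ccne2 at −0.31 to Pold1 at 0.32, and the right points stay below 0 across the GC range.

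Inside each set of 4 libraries all 35 genes were again lower in null embryos. The median was −0.13 in the first 4 libraries, where 56.4% of all tested genes were below 0, and −0.11 in the last 4, where 51.5% were; 40.5% of all tested genes were below 0 in both sets. With place in the record order as a block, Mcm7, Gins1, Pcna and Rrm2 fell in null embryos, with adjusted p of 0.0373, 0.0295, 0.0357 and 0.0304 (limma); 0.721% of all tested genes were called lower in that fit. With the trend on GC content removed from each library, Mcm7, Gins1 and Rrm2 were called lower, with adjusted p of 0.0476, 0.0299 and 0.0325 (limma), beside 0.404% of all tested genes. The fit without either correction called 0 of the 35 (limma), as given above. The overlaps described above for Rrm1, Uhrf1, Lig1 and Pola2 were between null embryos of 1 set and controls of the other. In Gins4, null 4 at 37.5 FPKM also exceeded heterozygote 1 at 35.5, a control of its own set.

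**Figure D5:**
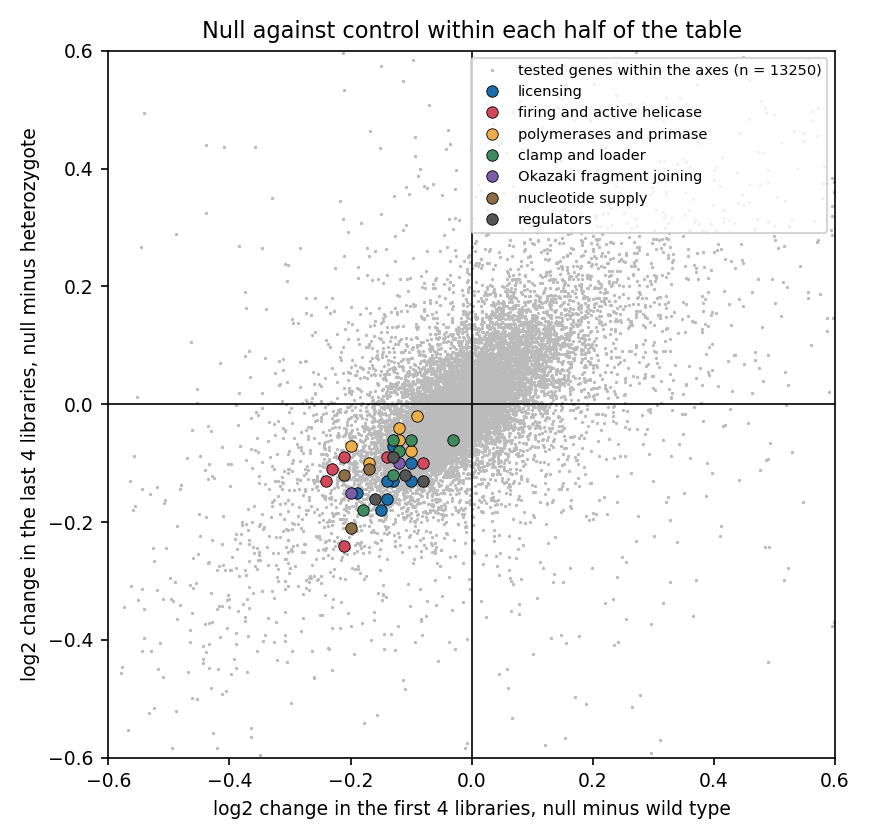
Log2 difference between null and control embryos in the first 4 libraries (horizontal axis) and in the last 4 (vertical axis), with all tested genes inside the axes in grey and the 35 replication genes coloured by role. All 35 fall in the lower left quadrant, where both differences are below 0, as do 40.5% of all tested genes.

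Other replication genes, 79 in all, gave 0 calls (limma), where 0.419% of all tested genes were called in either direction. Of their point estimates 70 were below 0, with a median of −0.08, where 54.2% of all tested genes were below 0. Set against wild types alone, 50 were below 0 and 29 above (54.6% of all tested genes were below 0), with a median of −0.04. Set against heterozygotes alone, 70 were below 0 (52.0% of all tested genes), with a median of −0.12. Of the 79, 9 were lower in null than in all controls without overlap (3.3% of all tested genes): Rpa1, which coats single-stranded DNA, Pole2 and Pole3 of polymerase epsilon, the histone chaperone subunit Ssrp1, the dUTPase Dut, the folate enzyme Shmt1, the repressive E2F factors E2f7 and E2f8, and the Cdk-binding protein Cks1b. Cks1b read 65.7 to 68.2 FPKM in null and 72.9 to 75.6 in control embryos (log2 −0.16, SE 0.04; limma, adjusted p = 0.206). Only Rb1, the repressor of E2F factors, was higher without overlap among the 79, where 1.83% of all tested genes were. Rb1 read 4.61 ± 0.15 FPKM in null and 3.87 ± 0.403 in control embryos (SD, n = 4 each), with an adjusted p of 0.448 (limma). The most abundant of the 79, Cdk4 and Ccnd2, which act together in G1, read 211 against 228 and 149 against 144 FPKM as group means, with overlap. Of the exon bases of Cdk4, 19.7% lie opposite Tspan31.

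Markers of other cell types moved with the groups in places. The 6 cartilage markers summed to 117 to 128 FPKM in null and 150.3 to 172 in control embryos, without overlap. The 4 of them that were tested were below 0, as were 54.2% of all tested genes. Of these Col2a1 and Matn4 fell in null embryos, by 0.40 and 1.18 on the log2 scale (limma, adjusted p = 0.0405 and 0.0263), where 0.191% of all tested genes were called lower. Against wild types alone 2 of the 4 were called (limma, 0.382% of all tested genes), and against heterozygotes alone 0 (0.0809%). Matn1 was at 0 in at least 1 library. Globins and other blood genes summed to 1414 to 1702 in null and 1578 to 2453 in control embryos, with overlap. All 9 had point estimates below 0, with a median of −0.32, and 0 were called (limma). Skeletal muscle markers summed to 73.2 to 305 in null and 65.1 to 205 in control embryos, with the highest levels in null 1, null 2 and wild type 2. All 8 had point estimates above 0, with a median of 0.78, and 0 were called (limma). Neuron markers summed to 16.7 to 95.2 in null and 22.2 to 104 in control embryos, with overlap. Of the 7 tested, 6 were below 0 and 1 above, and 0 were called (limma). Sums for epithelium, 176 to 228 against 181 to 269, and endothelium, 107 to 117 against 97.5 to 121, overlapped. The part of these cell types in the lower replication values was not tested.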

How the data were processed

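The deposited table gives FPKM per Ensembl gene for 8 libraries of embryonic palatal shelves, selected with oligo(dT) per the labels. Per the submitters' processing notes, the authors used Novoalign 2.08.03, build mm10 and DESeq2 (version not stated). Which program counted the fragments, on which annotation, is not given in the sources used here. FPKM moved in whole steps that gave the reads of each library. Libraries of 1 genotype differed by a chi-square of 11.4 to 46.3 per degree of freedom over genes, so none was a copy. Of the table's columns, 0 belonged to other samples.

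Gene names, positions, exon overlaps and GC content came from GENCODE M21 on GRCm38, which held 18752 of the 19083 identifiers. Genes that reached 1 FPKM in at least 2 libraries were tested as log2(FPKM + 0.5) with limma 3.58.1 (R 4.3.3), with a mean-variance trend and two-sided p adjusted by Benjamini-Hochberg over all 13600 genes; the scripts were tested on simulated data. This scale understates changes of low genes. Null was compared with all controls, and in a 3-group fit with each control genotype.

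Values in every library are given for the most abundant gene and the smallest p of each role, for called genes and for genes without overlap. The 35 genes, the other lists and the tests were chosen with earlier results of these data known. Alternatives covered pseudocounts, filters, scaling, blocks, GC content and leaving out libraries. Intervals are 95% and counting error covers sampling of reads only.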

Additional observations from a re-analysis of the deposited data

Results flagged for a closer look

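In 2 of 70 sets of 4 values (35 genes in the null and in the control libraries), 1 library stood far from the other 3, where chance marks about 1 in 20. Gins4, a GINS subunit, read 40.5 FPKM in heterozygote 2 against 35.5 to 36.1 in the other controls, a gap of 0.878 of the range. Rfc4, a clamp loader subunit, read 36.8 FPKM in the same library against 29.1 to 30.3, a gap of 0.846 of the range. Both genes overlapped between null and control embryos, and neither passed the test in any comparison.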

How the results depend on the processing

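Most settings called 0 of the 35 genes, among them limma-voom on the recovered reads, an alternative chosen after seeing the data. The count rose to 3 with the GC trend removed, to 3 with the GC trend removed and the title number as replicate block, and to 4 with a replicate block for the first or last 4 libraries. The title number, 44 or 56, as replicate block alone called 0 of the 35 and 47 genes in all. Differences between the numbers correlated by 0.09, 0.20 and 0.35 between pairs of genotypes. Such correlations cannot show whether libraries of the same number share a litter or a preparation, which was not tested. The main fit did not pair libraries by number. The median log2 difference of the 35 ran from −0.16 to −0.11 when 1 library was left out, with −0.16 without null 1; every such fit called 0 of the 35. The Prim1 difference ran from −0.12 without null 4 to values that reversed, 0.01 without heterozygote 2 and 0.002 without null 1. Over all tested genes the 57 calls became 116 with GC removed, 124 with GC removed and the title block, 176 with the first or last block, 35 at a mean FPKM of at least 5, 16 to 52 when 1 library was left out (leaving out wild type 1 gave 16, null 2 gave 17, null 1 gave 21, null 3 gave 29, and wild type 2 and heterozygote 1 each gave 28), 2 and 3 in the first and last 4 libraries alone, and 0 and 4 within title numbers 44 and 56. The cause of these moves was not tested; the fits without a library, of 4 libraries or of 1 title number hold fewer samples. Count tests with edgeR and DESeq2 were not run, because the deposited values are FPKM.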

Other observations

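Genes of G2 and mitosis, the phases after DNA copying, were looked at beside the replication genes. All 30 had point estimates below 0 in null against control embryos, with a median of −0.14, where 54.2% of all tested genes were below 0. The number called was 0 (limma), where 0.419% of all tested genes were called in either direction. At an unadjusted p under 0.05 (limma), 10 of the 30 were lower, against 4.19% of all tested genes. Against wild types alone 26 were below 0 (54.6% of all tested genes), with a median of −0.10. Against heterozygotes alone 29 were below 0 (52.0% of all tested genes), with a median of −0.16. Their summed level was 969 to 1148 FPKM in null and 1124 to 1191 in control embryos, with overlap, since null 4 reached 1148. Ube2c, which conjugates ubiquitin to mitotic cyclins, read 41.5 to 44.9 FPKM in null and 47.8 to 51.5 in control embryos (log2 −0.21, SE 0.05; limma, adjusted p = 0.158). Of its exon bases, 22.8% lie opposite Tnnc2, a muscle gene, and without strand their reads cannot be told apart. Cdk1, the mitotic kinase, read 37.9 to 43.6 against 44.2 to 47.1. Mki67, whose protein is a common stain for cycling cells, read 68.8, 65.3, 74.8 and 86.6 in null and 71.9, 80.9, 77.4 and 85.9 in control embryos, and null 4 was the highest of all. These genes were chosen after their values were seen.

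Inhibitors of cyclin-dependent kinases gave 0 calls among the 5 tested of 7 (limma), with a median of 0.03. Cdkn1c, the most abundant, read 467, 395, 336 and 284 FPKM in null, 342 and 391 in wild type, and 317 and 269 in heterozygous embryos. Its first 4 libraries in record order all lay above its last 4. Of its exon bases, 30.7% lie opposite the antisense gene Gm44732. Cdkn1a read 12.3, 11.2, 6.34 and 4.46 FPKM in null and 6.89, 9.45, 4.99 and 4.51 in control embryos, again with higher values in the first 4 libraries.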
